A study of Oryctolagus cuniculus with 16 samples.

Results

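Expression of a group of 9 genes that mark platelets and megakaryocytes was examined in the femoral heads of rabbits with surgically induced Perthes disease and of control rabbits. The genes were chosen by name (*ITGA2B*, *ITGB3*, *GP9*, *GP6*, *TREML1*, *TUBB1*, *PF4*, *SELP* and *VWF*), and a row of the count table was taken when its gene symbol equalled one of them. Of the 9 genes, 7 were found among the 20255 genes of the table and all 7 passed the filter on low counts, whereas *GP6* and *PF4* were not found under these symbols and are not used here. The Perthes group comprised 5 wild-type rabbits, immature at 8 weeks, in which the femoral neck was ligated with a suture and the ligamentum teres was cut to stop the blood supply of the epiphysis. The control group comprised 3 wild-type rabbits, for which a sham operation is not described. The strain, the sex and the interval between surgery and sampling are not given in the sources used here. Each library is total RNA of femoral head tissue, depleted of ribosomal RNA, so that cartilage, bone, vessels and marrow may each contribute to a value. Which parts of the head were taken is not stated. In such bulk tissue, fewer cells of a type and less RNA per cell cannot be told apart.

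Megakaryocytes are large polyploid cells of the bone marrow that lie against the sinusoids and release platelets into the blood. Thrombopoietin drives their growth, and transcription factors such as GATA1, FLI1 and NFE2 switch on the genes that platelets need. Platelets carry adhesion receptors on their surface, hold secreted proteins in alpha granules and keep their disc shape with a ring of microtubules. Several of these products are shared with other cells, since endothelial cells also store von Willebrand factor and P-selectin, and osteoclasts also use the integrin beta 3 chain. No sequence is shown, because neither the deposited table nor the gene list used for names holds any.

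The libraries held from 26757094 to 29461494 counts each, so 1 count was worth well under 0.1 CPM, the count of a gene relative to its library's TMM-scaled total. Markers of the tissue were present in every library. The summed level of 8 chondrocyte genes ran from 33800 to 135573 CPM in Perthes rabbits and from 45924 to 63003 CPM in controls, and that of 8 osteoblast genes from 46308 to 145639 CPM and from 73909 to 92445 CPM. The labels number the samples of a group and say no more of how they were kept apart, so a p-value measures the spread between these 8 samples, part of which may be technical.

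In 5 of the 7 genes (*ITGA2B*, *SELP*, *TUBB1*, *TREML1* and *GP9*) the highest Perthes rabbit lay below the lowest control, whereas 13.9% of all tested genes were lower without overlap. The exceptions were *ITGB3* and *VWF*, whose groups overlapped. The test used was edgeR's quasi-likelihood test with Benjamini-Hochberg adjustment, and a gene was called at an adjusted p below 0.05. Of the 7 genes, *ITGA2B* and *SELP* fell, so 2 of 7 were called lower, against 8.87% of all tested genes. None was called higher by edgeR, against 6.21% of all tested genes, although 1 gene, *VWF*, had an unadjusted p of 0.0106. By DESeq2, *ITGA2B*, *SELP*, *TUBB1* and *TREML1* were called lower and *VWF* higher, against 12.5% and 11.3% of all genes. The count of 2 rested on single rabbits. Leaving out Perthes rabbit 1 or Perthes rabbit 2, edgeR called 4 or 5 of the 7 genes lower, against 7.88% and 10.7% of all genes. It called 1 without Perthes rabbit 3 or Perthes rabbit 5, against 4.25% and 3.61% of all genes. Without control rabbit 1 or control rabbit 2 it called 0, against 1.18% and 0%. There 6 of the 7 genes had an unadjusted p below 0.05 each time, beside 3899 of 15632 and 3722 of 15594 tested genes. The median log2 fold change of the 7 genes was -2.71, beside 0.02 over the 15305 genes tested.

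**Figure D1:**
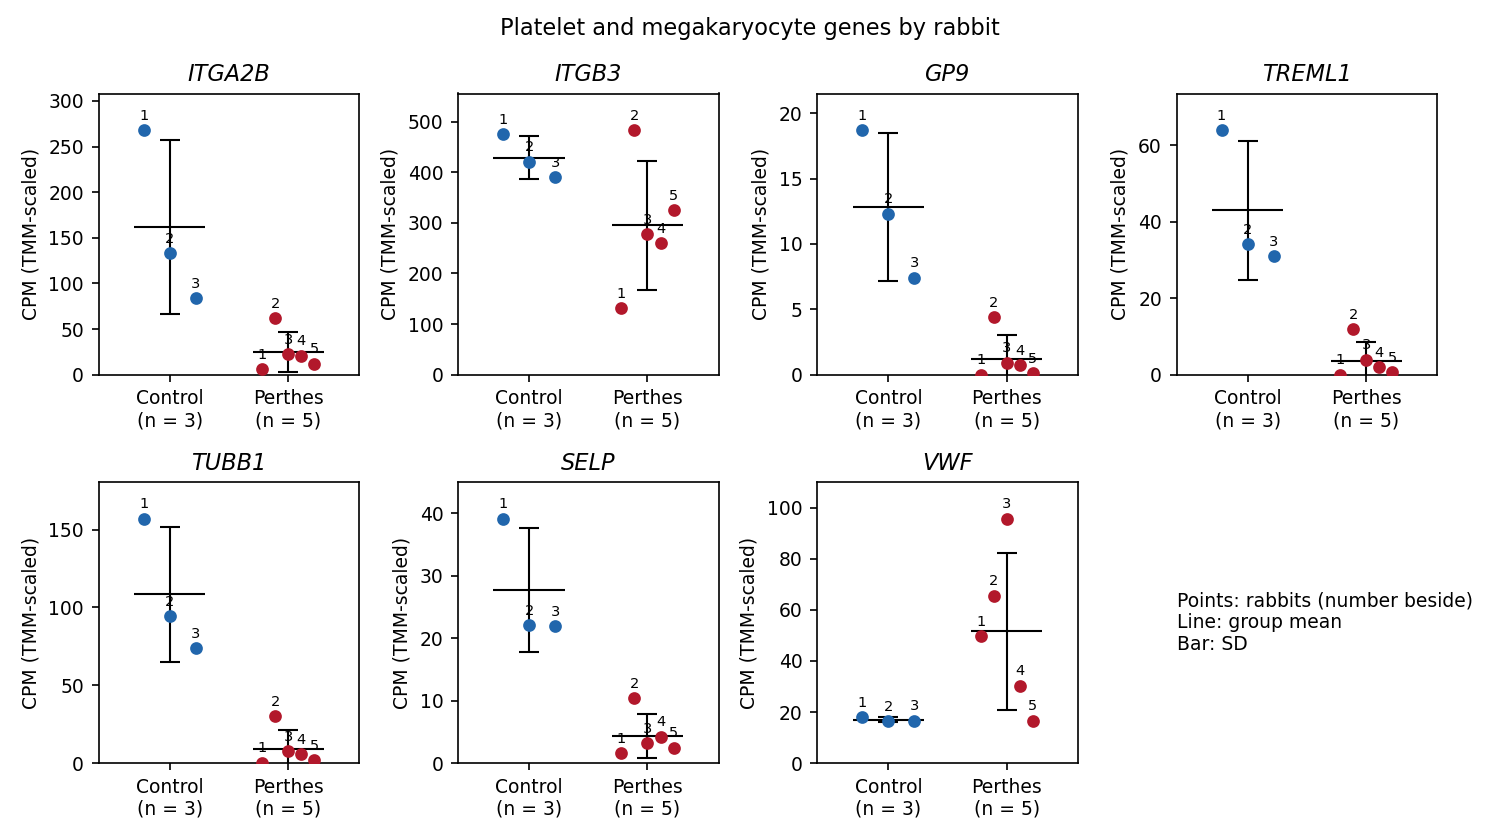
Level of each of the 7 genes (CPM, vertical axis from 0, a separate scale for each gene) in 3 control rabbits (blue) and 5 Perthes rabbits (red), with rabbit numbers beside the points, lines at the group means and bars of 1 SD. *ITGA2B*, *GP9*, *TREML1*, *TUBB1* and *SELP* lie lower in all Perthes rabbits than in any control, whereas *ITGB3* and *VWF* overlap.

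*ITGA2B* (gene 100008734) encodes the integrin alpha IIb chain, the partner that makes the fibrinogen receptor specific to platelets and megakaryocytes. It had 6.28, 62, 22.4, 21 and 12 CPM in Perthes rabbits 1 to 5, and 268, 133 and 83.9 CPM in control rabbits 1 to 3. The lowest control was thus above Perthes rabbit 2, the highest of its group, and control rabbit 1 stood above the other controls. The control mean was 162 ± 95.3 CPM (SD, n = 3) and the Perthes mean 24.7 ± 21.9 CPM (SD, n = 5), which is 6.54-fold lower (log2 fold change -2.71 with standard error 0.66, edgeR adjusted p = 0.0274). The call was lost without control rabbit 1 (log2 fold change -2.13, adjusted p = 0.117), control rabbit 2 (adjusted p = 0.073), Perthes rabbit 3 (adjusted p = 0.0677) or Perthes rabbit 5 (adjusted p = 0.0674), and the direction was the same each time.

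*ITGB3* (100008735) encodes the beta 3 chain that pairs with alpha IIb on platelets and with the alpha V chain on osteoclasts, endothelium and other cells. Its levels were 131, 483, 277, 260 and 325 CPM in Perthes rabbits 1 to 5 and 475, 421 and 390 CPM in the controls. Perthes rabbit 2 was above all controls and the other 4 Perthes rabbits were below them. The log2 fold change of -0.54 had a standard error of 0.35 and an edgeR adjusted p of 0.318, a difference within the spread between rabbits. Over the alternatives the adjusted p ran from 0.109 to 0.524. *ITGAV* (100008956), the alpha V chain, rose. Its control mean was 136 ± 48.3 CPM (SD, n = 3) and its Perthes mean 281 ± 43.7 CPM (SD, n = 5), without overlap (log2 fold change 1.05 with standard error 0.27, edgeR adjusted p = 0.0313).

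*GP9* (100340400) encodes glycoprotein IX, a small subunit of the receptor complex by which platelets hold on to von Willebrand factor. It was counted 0, 117, 25, 20 and 3 times in Perthes rabbits 1 to 5 and 524, 350 and 223 times in the controls, which is 0 to 4.38 CPM against 7.42 to 18.7 CPM. The groups were apart, and 70.9% of the counts in the Perthes group came from rabbit 2. For the 0 in Perthes rabbit 1 a fixed limit of 3 counts or 0.101 CPM was assumed, and this limit is 127-fold lower than the control mean. It is not the 95% Poisson limit used for other genes below. Over the groups the log2 fold change was -3.39 with a standard error of 1.08, and the adjusted p of 0.0628 from edgeR missed the threshold. Without Perthes rabbit 2 it was -4.88, with an adjusted p of 0.00873.

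*TREML1* (100350653) encodes a receptor that platelets carry in their alpha granules and expose on activation. It had 0.0338, 11.9, 3.89, 1.93 and 0.647 CPM in Perthes rabbits 1 to 5 and 64, 34.1 and 31 CPM in the controls. No Perthes rabbit reached the lowest control, and Perthes rabbit 1 held a single count. The log2 fold change of -3.55 (standard error 1.05) had an adjusted p of 0.0518 from edgeR, at the edge of the threshold. Without Perthes rabbit 2 the values were -4.73 and 0.0115, and without Perthes rabbit 1 they were -3.22 and 0.0416.

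*TUBB1* (100347858) encodes the beta 1 tubulin of the platelet's microtubule ring. Its levels were 0.169, 30.2, 7.53, 5.57 and 1.77 CPM in Perthes rabbits 1 to 5 and 157, 94.3 and 73.8 CPM in the controls, again without overlap. The Perthes mean was 9.05 ± 12.2 CPM (SD, n = 5), with a control mean of 108 ± 43.4 CPM (SD, n = 3). The log2 fold change of -3.58 (standard error 1.07) had an adjusted p of 0.0531 from edgeR. Without Perthes rabbit 2 the values were -4.85 and 0.00982, and without Perthes rabbit 1 they were -3.27 and 0.0412.

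*SELP* (100009534) encodes P-selectin, which platelets and endothelial cells keep in granules and show to leukocytes after stimulation. It had 1.55, 10.4, 3.19, 4.22 and 2.48 CPM in Perthes rabbits 1 to 5 and 39.1, 22.1 and 21.9 CPM in the controls. All Perthes rabbits were below all controls. The Perthes mean of 4.37 ± 3.51 CPM (SD, n = 5) was 6.34-fold lower than the control mean of 27.7 ± 9.88 CPM (SD, n = 3), and the log2 fold change of -2.67 with a standard error of 0.54 had an edgeR adjusted p of 0.0165. The edgeR adjusted p was 0.0707 without control rabbit 1 and 0.0553 without control rabbit 2.

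*VWF* (100009165) encodes von Willebrand factor, the large blood protein that tethers platelets to injured vessels and is made by megakaryocytes and endothelium. In contrast to the other genes, it had 49.7, 65.5, 95.7, 30.3 and 16.7 CPM in Perthes rabbits 1 to 5 and 18.1, 16.4 and 16.7 CPM in the controls. The controls lay close together, at 17.1 ± 0.938 CPM (SD, n = 3), whereas the Perthes rabbits spread from the control level, in rabbit 5, to 560% of the control mean, in rabbit 3. The Perthes mean was 51.6 ± 30.9 CPM (SD, n = 5), so the log2 fold change was 1.59 with a standard error of 0.50, and the edgeR adjusted p of 0.0606 did not pass. It was 0.0468 without Perthes rabbit 4 and 0.0384 without Perthes rabbit 5.

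The exact two-sided permutation test over all 56 divisions of the rabbits gave p = 0.0357, the smallest it can give, for each of *ITGA2B*, *SELP*, *TUBB1*, *TREML1* and *GP9*. Groups without overlap always give this smallest p, so for these genes the test only repeats that their groups were apart. The exact p was 0.0714 for *VWF* and 0.143 for *ITGB3*. None of these exact p-values was adjusted for the number of genes.

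The Perthes rabbits were not alike. In each of the 5 genes whose groups were apart, Perthes rabbit 2 was the highest and Perthes rabbit 1 the lowest of the 5 Perthes rabbits, and control rabbit 1 was the highest control. Perthes rabbit 2 kept from 27.8% (*TREML1*) to 38.3% (*ITGA2B*) of the control mean. Perthes rabbit 5 kept 7.45% for *ITGA2B* and 8.96% for *SELP*, but 1.63% for *TUBB1*, 1.5% for *TREML1* and 0.796% for *GP9*.

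The widest split among the genes was in Perthes rabbit 1. There *ITGA2B* stood at 3.88% of the control mean (95% exact Poisson interval 3.35 to 4.48%) and *SELP* at 5.61% (4.1 to 7.48%). *TUBB1* stood at 0.156% (0.0506 to 0.364%) and *TREML1* at 0.0785% (0.00199 to 0.438%). These intervals cover counting error only, and they do not meet between the former and the latter genes. In the same library *GP1BA*, the main adhesive subunit of the glycoprotein complex to which GP9 belongs, had 0 counts, and *GP5* of that complex had 46 counts or 3.65% of its control mean.

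**Figure D2:**
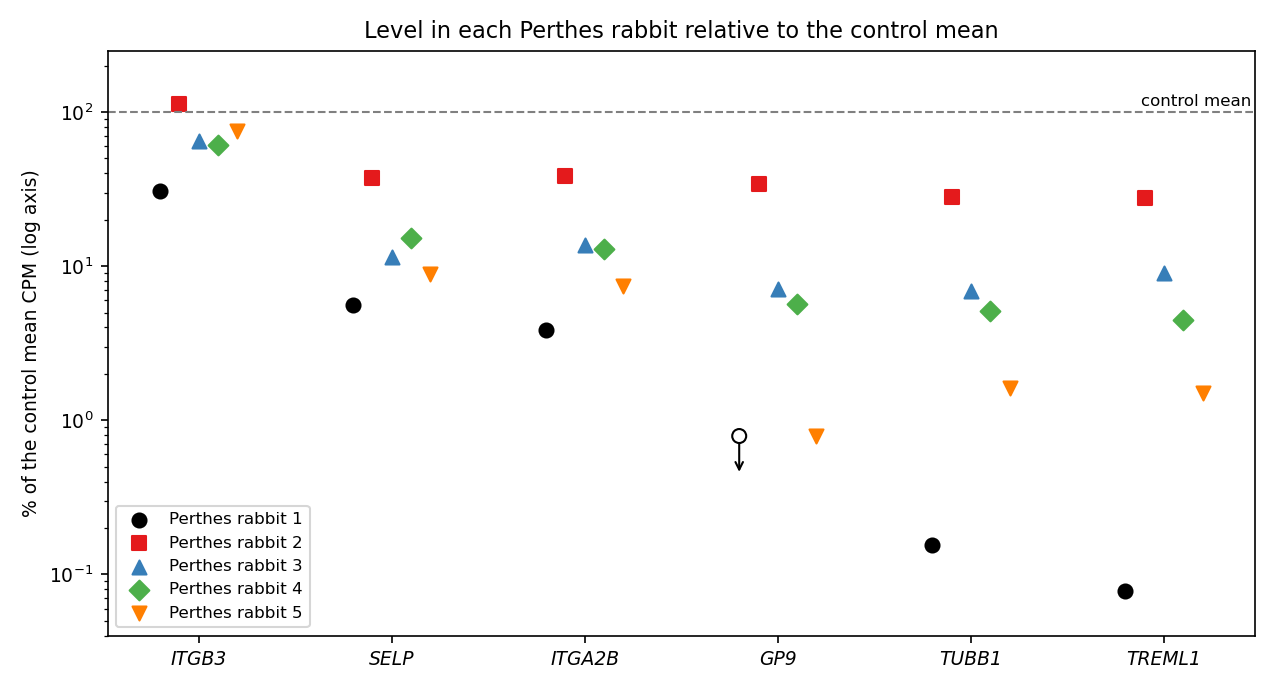
Level of 6 genes in each of the 5 Perthes rabbits as a percent of the mean of the 3 controls (log axis, dashed line at the control mean). The open symbol with an arrow for *GP9* in Perthes rabbit 1 marks the limit of 3 counts that was assumed for a count of 0. Perthes rabbit 2 is the highest for every gene, and Perthes rabbit 1 lies at 3.88% for *ITGA2B* but at 0.156% for *TUBB1* and 0.0785% for *TREML1*.

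The likeness of the profiles was measured as the root-mean-square distance between log2 CPM values over the 8 libraries after each gene's own mean was subtracted. Of the 21 pairs that the 7 genes form, *TUBB1* and *TREML1* were the closest at 0.16, and *ITGA2B* and *SELP* were next at 0.31. *GP9* lay 0.47 from both *TUBB1* and *TREML1*, and 1.11 from *ITGA2B*. *VWF* was the farthest from most genes, at 3.49 from *TUBB1* and 2.29 from *ITGA2B*, and it was nearest to *ITGB3* at 1.29.

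Among 12309 other genes with a name, the 10 closest to *ITGA2B* lay at distances from 0.21 to 0.29. Among them were *ALOX12*, *EPOR*, *SELENBP1*, *P2RX1*, *CCNF*, *SYTL1*, *H1-5*, *PPFIA4* and *TESC*. *ALOX12* encodes the platelet 12-lipoxygenase and *P2RX1* the ATP-gated channel of platelets, whereas *EPOR* is the erythropoietin receptor. *H1-5* is a histone gene whose near-identical relatives can share reads. *SELP* ranked 15 and *GP5* 24 by distance, and *TREML1* ranked 1523 and *TUBB1* 1607. The distance depends on the size of a change as well as on the order of the rabbits. *TREML1* and *TUBB1*, with 1 and 5 counts in Perthes rabbit 1, had the rabbit order of *ITGA2B* in both groups. In *SELP* the order of the Perthes rabbits differed.

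Ratios of 6 pairs of genes that share a receptor or a cell type were compared between the groups. The log2 ratio of *ITGB3* to *ITGA2B*, with 0.5 CPM added to each, was 4.28, 2.95, 3.60, 3.60 and 4.70 in Perthes rabbits 1 to 5 and 0.82, 1.66 and 2.21 in the controls. It was thus higher in all Perthes rabbits, by 2.26 on average or 4.8-fold. The ratio of *ITGB3* to *ITGAV* was 1.72 ± 0.71 (SD, n = 3) in controls and -0.03 ± 0.73 (SD, n = 5) in Perthes rabbits, a difference of -1.75, also without overlap.

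*SELP* kept step with *ITGA2B*, with log2 ratios of -2.63 to -1.72 in Perthes rabbits and -2.76 to -1.91 in controls. Against *CDH5*, the VE-cadherin of endothelial cells, *SELP* was lower in every Perthes rabbit, with a difference of -3.14 in the mean log2 ratio. *VWF* behaved the other way round, higher against *ITGA2B* by 4.25 without overlap and higher against *CDH5* by 0.92 with overlap. By the exact two-sided permutation test, 4 of the 6 ratios reached p = 0.0357, and *SELP* to *ITGA2B* and *VWF* to *CDH5* had p = 0.571 and p = 0.25. Adjusted over the 6 pairs the 4 smallest became 0.0536 in this exact test, so no ratio passed 0.05, and 5 of 6 would have had to reach the smallest p for any to pass.

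**Figure D3:**
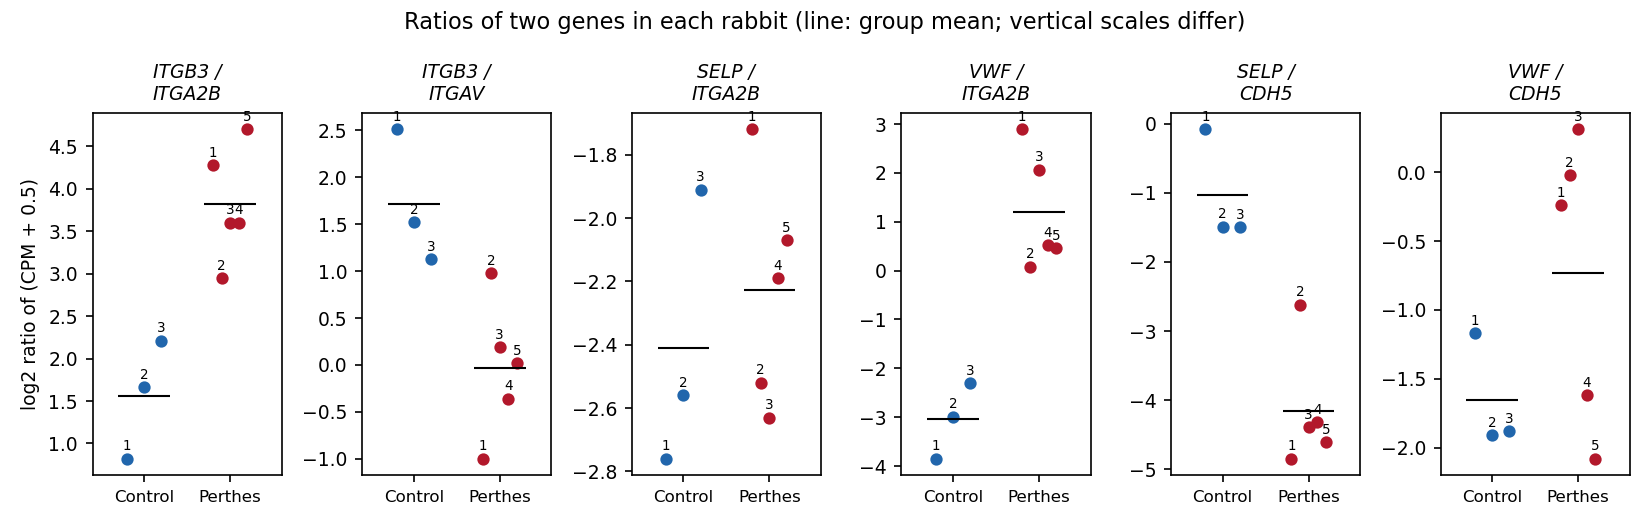
Log2 ratio of (CPM + 0.5) for 6 pairs of genes in 3 control rabbits (blue) and 5 Perthes rabbits (red), with numbers for the rabbits, lines at the group means and a separate vertical scale for each pair. The groups are apart for *ITGB3* to *ITGA2B*, *ITGB3* to *ITGAV*, *VWF* to *ITGA2B* and *SELP* to *CDH5*, and overlap for *SELP* to *ITGA2B* and *VWF* to *CDH5*.

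Other genes with a role in platelets or megakaryocytes were taken from 5 lists by role. Many of them, among those that fell as well as those that rose, are not confined to this lineage. Neutrophil markers also fell, with a median log2 fold change of -3.73, and the part of other cells in the counts below was not tested. Together with the 7 genes above, 101 of the 115 listed genes were tested, of which 31 fell and 3 rose by edgeR (adjusted p below 0.05), against 8.87% and 6.21% of all tested genes. Their median log2 fold change was -0.72. The counts depended on single rabbits. They were 17 and 1 without Perthes rabbit 3, 17 and 2 without Perthes rabbit 5, and 2 and 0 without control rabbit 1. Without control rabbit 2 they were 0 and 0. There 61 of these genes had an unadjusted edgeR p below 0.05, beside 3722 of 15594 tested genes. In the same 4 settings 4.25%, 3.61%, 1.18% and 0% of all tested genes were called lower, and 2.53%, 2.3%, 0.467% and 0% higher. Without Perthes rabbit 4 the counts for the lists were 29 and 6, against 9.39% and 8.36% of all genes. For each role, the same 8.87% and 6.21% of all tested genes are the background.

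Of 18 further adhesion receptors and partners, 5 fell, 2 rose and 11 did not pass. *MPIG6B*, an inhibitory receptor of megakaryocytes, had the largest decrease of the 5, with a control mean of 18.7 ± 4.08 CPM (SD, n = 3), a Perthes mean of 1.05 ± 0.968 CPM (SD, n = 5) and a log2 fold change of -4.17. *CLEC1B*, the podoplanin receptor, *GP5* and the immunoglobulin-like receptor *LY6G6F* also fell, with log2 fold changes of -3.03, -3.06 and -3.14. *GP1BA* had from 0 to 12.8 CPM in Perthes rabbits and from 33.1 to 69.2 CPM in controls (log2 fold change -3.64 with standard error 1.13, edgeR adjusted p = 0.0602). The 2 that rose, the tetraspanin *CD9* (1.39) and the integrin beta 1 chain *ITGB1* (0.91), are made by many cell types besides platelets. *PECAM1*, shared by platelets and endothelium, had a log2 fold change of -0.30 that did not pass (adjusted p = 0.421 from edgeR).

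Of 19 further genes for granule contents and granule formation, 5 fell and none rose by edgeR. *SLC18A2*, which loads monoamines into dense granules, fell by 3.46 on the log2 scale. *MMRN1*, the alpha granule protein multimerin, fell by 3.05, with a control mean of 11.1 ± 1.65 CPM (SD, n = 3) and a Perthes mean of 1.34 ± 1.34 CPM (SD, n = 5). *F5*, coagulation factor V, and *NBEAL2*, needed to form alpha granules, had log2 fold changes of -2.36 and -2.34 and passed. The chemokine precursor *PPBP* was counted 9, 454, 94, 81 and 50 times in Perthes rabbits 1 to 5 and 1758, 1092 and 842 times in the controls, and its log2 fold change of -3.09 missed the threshold (adjusted p = 0.0525 from edgeR). The fifth gene that fell was *SRGN*, the granule proteoglycan serglycin (-1.53), whereas *THBS1* (0.62) and *TGFB1* (-0.09) did not pass.

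Of 16 further genes of the cytoskeleton and of proplatelet formation, 4 fell and none rose. They were the tubulin *TUBA4A* (-2.60), the caveolar protein *CAVIN2* (-2.48), the kinase subunit *PRKAR2B* (-2.12) and pleckstrin, *PLEK* (-1.27). *MYH9* and *FLNA*, which build the cytoskeleton of most cells, had log2 fold changes of -0.61 and 0.24 and did not pass. *SLFN14* was also among the 12 that did not pass, although its decrease was larger than that of any of the 4. Its log2 fold change was -2.99 with standard error 1.08 (edgeR adjusted p = 0.0914), and its groups did not overlap.

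Of 26 agonist receptors and signalling genes, 9 fell, 1 rose and 16 did not pass. *RASGRP2*, the activator of RAP1 in platelets, *P2RX1* and the regulator *RGS18* were among them, with log2 fold changes of -2.91, -2.89 and -1.89. *ALOX12* (100340525) had 0.439, 3.52, 1.54, 1.31 and 0.851 CPM in Perthes rabbits 1 to 5 and 16, 7.9 and 7.25 CPM in the controls, which puts the rabbits of each group in the order they have for *ITGA2B*. *F2R*, a thrombin receptor also found on vessel and stromal cells, rose. Its control mean was 12.8 ± 1.67 CPM (SD, n = 3) and its Perthes mean 31.4 ± 8.06 CPM (SD, n = 5), so the log2 fold change was 1.29 with standard error 0.24 (edgeR adjusted p = 0.0136).

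Of 15 tested genes of the thrombopoietin axis and transcription factors, 6 fell and none rose. The transcription factors *TAL1* and *GATA2*, shared with red cell precursors and stem cells, had log2 fold changes of -2.45 and -2.34, and *CCND3*, cyclin D3, had -1.42, and all 3 passed. *GATA1* and *NFE2*, which also act in red cell precursors, had 0.304 to 38.1 CPM and 1.11 to 93.4 CPM in Perthes rabbits, and 83.5 to 129 CPM and 192 to 376 CPM in controls. Their log2 fold changes of -3.27 and -3.21 missed the threshold (adjusted p = 0.0708 and 0.0652 from edgeR), although the groups were apart. *RUNX1* had a log2 fold change of 0.31 that did not pass.

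**Figure D4:**
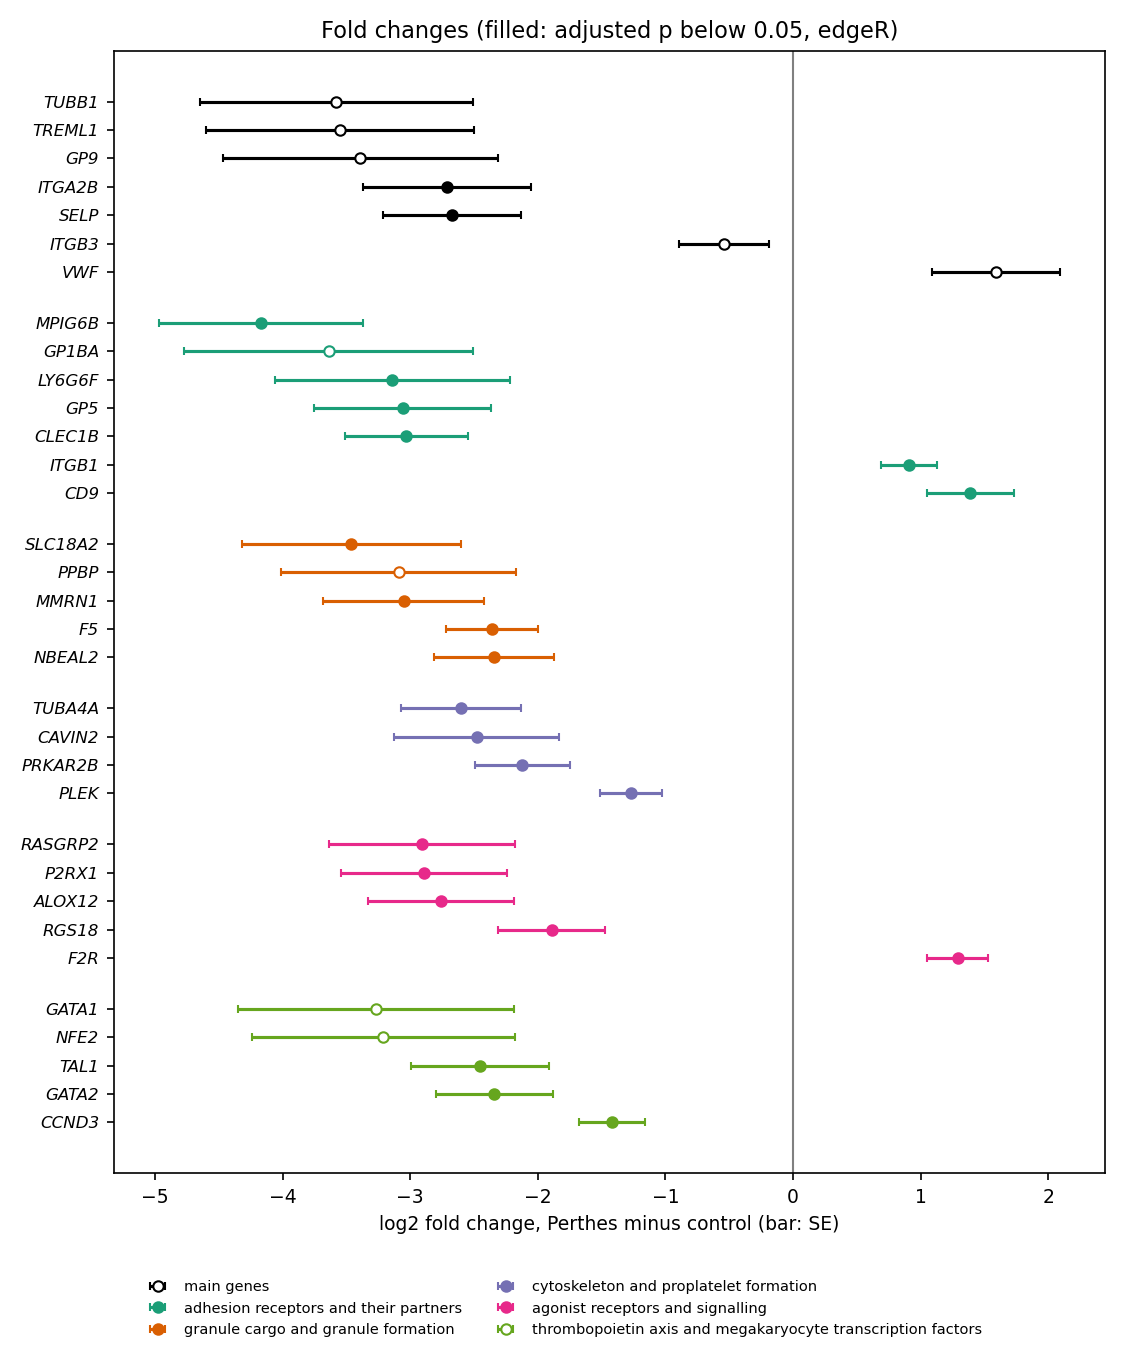
Log2 fold change, Perthes minus control (horizontal axis, bars of 1 standard error), of the 7 genes and of the named genes of 5 role lists. Filled points passed edgeR's test (adjusted p below 0.05). The 2 filled points among the 7 genes are *ITGA2B* and *SELP*, and *CD9*, *ITGB1* and *F2R* are the filled points above 0.

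The summed level of 6 megakaryocyte and platelet markers was 6.82 to 128 CPM in Perthes rabbits and 228 to 580 CPM in controls. Markers of erythroid cells and neutrophils were lower in the Perthes rabbits as well, whereas the summed levels of B cell and macrophage markers overlapped. Gene by gene, 4 of 5 tested B cell genes had a negative log2 fold change, with a median of -1.59 over the list. Of 7 macrophage genes, 5 had a positive one, with a median of 1.07. All 10 tested erythroid genes and all 8 tested neutrophil genes were lower without overlap in Perthes rabbits, and 2 and 4 of them passed edgeR's test. Over all tested genes, 13.9% were lower without overlap and 8.87% were called lower. The summed level of the erythroid genes was 36.5 to 2412 CPM in Perthes rabbits and 5156 to 5827 CPM in controls, and that of the neutrophil genes 28.2 to 1810 CPM and 6770 to 22406 CPM. For both lists Perthes rabbit 2 was the highest and Perthes rabbit 1 the lowest Perthes rabbit, as for the platelet genes, and no marker of either list was at 0 in all libraries. Their part in the result was not tested.

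Endothelium and osteoclasts share *VWF*, *SELP* and *ITGB3* with platelets. Of 13 endothelial genes, 1 fell and none rose, beside 8.87% and 6.21% of all tested genes, and their summed level of 310 to 503 CPM in Perthes rabbits overlapped that of 430 to 536 CPM in controls. *CDH5* had 73.8 ± 13.3 CPM (SD, n = 5) against 55.8 ± 12.5 CPM (SD, n = 3), a difference that did not pass (adjusted p = 0.219 from edgeR). Of 10 osteoclast genes, 4 rose and none fell, with sums of 3239 to 6286 CPM against 1450 to 2628 CPM. Among them, *CTSK*, the cathepsin that digests bone matrix, rose by 1.83, whereas *ACP5* (0.36) and the calcitonin receptor *CALCR* (1.42) did not pass. Of 7 macrophage genes, 3 rose and 1 fell. Of the remaining lists, 1 of 5 tested B cell genes fell and 2 of 7 fibroblast genes rose. No osteoblast, chondrocyte, adipocyte or skeletal muscle gene was called by edgeR. In that order, 2 of 8, 2 of 7, 0 of 5 and 1 of 3 tested genes had an unadjusted p below 0.05. Among all tested genes, 4883 of 15305 did. The part of these cells in the levels of *VWF*, *SELP* and *ITGB3* was not tested.

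**Figure D5:**
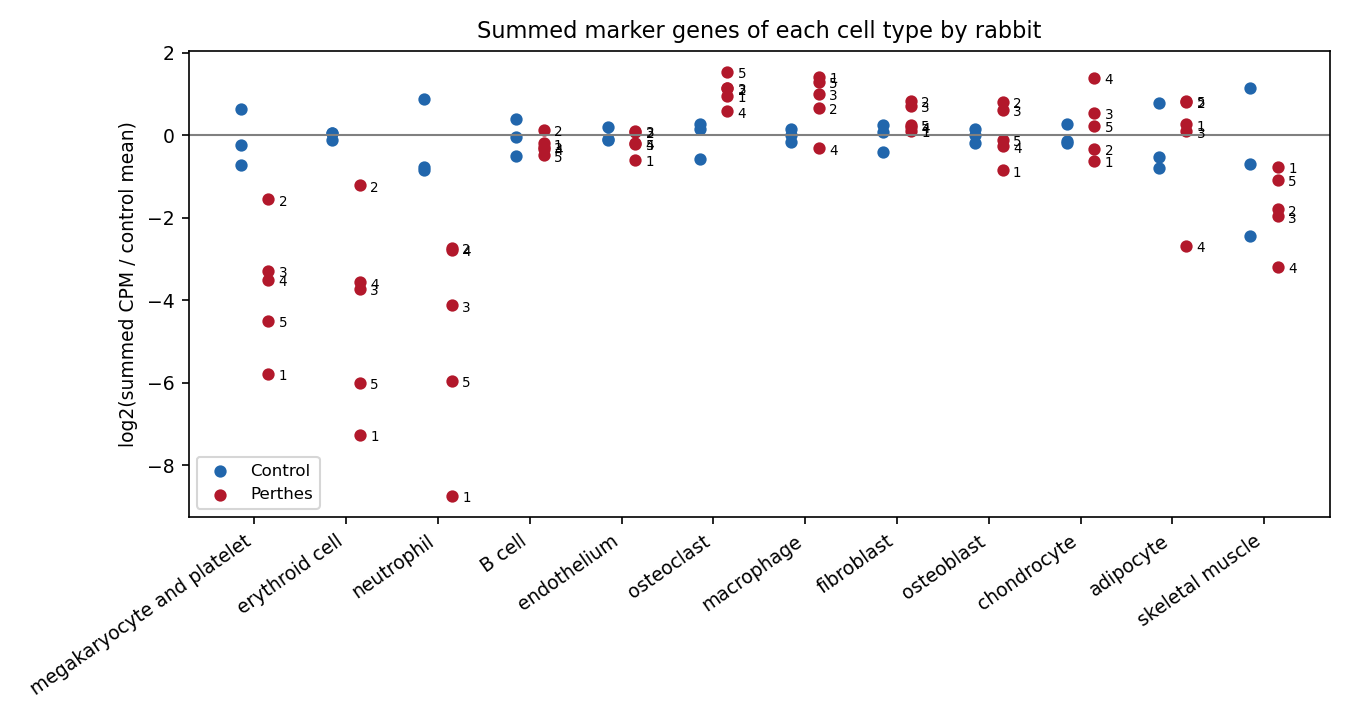
Summed CPM of the marker genes of 12 cell types in each rabbit, as log2 relative to the control mean, for 3 control rabbits (blue) and 5 Perthes rabbits (red, with their numbers). The megakaryocyte and platelet, erythroid and neutrophil sums lie lower in all Perthes rabbits, with rabbit 2 highest and rabbit 1 lowest, and the endothelial sums overlap.

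As no row bore the symbols *GP6* or *PF4*, the gene descriptions in the table were searched after the values of the other genes had been seen. The gene LOC103346235 is described as platelet glycoprotein VI, the collagen receptor. It was counted 1, 76, 21, 9 and 3 times in Perthes rabbits 1 to 5 and 365, 220 and 152 times in the controls (log2 fold change -3.41 with standard error 0.98, edgeR adjusted p = 0.0471). The gene LOC100008921, described as platelet microbicidal protein 1, was counted 7, 141, 66, 35 and 13 times against 824, 447 and 430 times (log2 fold change -3.36 with standard error 0.80, edgeR adjusted p = 0.0253). In both, all Perthes rabbits were below all controls, with Perthes rabbit 2 highest and Perthes rabbit 1 lowest of their group.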

How the data were processed

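Total RNA from femoral heads of 5 Perthes and 3 control rabbits was analysed; the small RNA libraries were not used here. The authors mapped reads with HISAT2 2.0.4, used HTSeq 1.99.2 and RSEM 1.1.17 for quantification per the labels, and deposited expected counts per gene, unnormalized, of which up to 10.7% in a library were not whole (tolerance 1e-06). These were rounded. Another 8 per-sample columns repeat the same values and were left out. The third control has code number 3 but replicate 2 in its title, and its code was used. All 7 gene identifiers matched RefSeq (mOryCun1.1) with the same symbol, and no coordinates were used, since the authors mapped to another rabbit assembly.

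Counts were scaled by TMM, filtered by filterByExpr and tested with edgeR 4.0.16 in R 4.3.3 (quasi-likelihood, Benjamini-Hochberg adjustment over 15305 genes). The standard error is the log2 fold change over the square root of F. Log2 CPM used a prior count of 2. The test was checked on simulated counts. The study applied its own thresholds (log2 fold change beyond 2, adjusted p below 1e-05) to DESeq2 results and reported genes past them. The same thresholds called 0 genes by edgeR, whose smallest adjusted p was 0.0118, so an adjusted p below 0.05 was used.

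The genes and lists were chosen with earlier results of these data known. In each role list the 4 largest changes per direction past the threshold were named, with *ALOX12*, *ITGAV*, *GP1BA*, *GP5*, *PPBP*, *GATA1* and *NFE2* whatever their value, as were the 10 genes nearest to *ITGA2B* and *CDH5*, *ACP5*, *CTSK* and *CALCR* among markers. *PECAM1*, *SRGN*, *THBS1*, *TGFB1*, *MYH9*, *FLNA*, *SLFN14*, *RUNX1*, LOC103346235 and LOC100008921 and the genes of the last part below were named after their values were seen. *GP1BB* and a few other genes that the rule names are not reported here. Alternatives were DESeq2 1.42.0, other scalings and filters, a block for the replicate number, and leaving out each rabbit.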

Additional observations from a re-analysis of the deposited data

Results flagged for a closer look

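On the CPM scale, Perthes rabbit 2 was marked by Dixon's test in 3 of the 7 genes. It stood at 62 CPM for *ITGA2B* (next highest 22.4 CPM), 30.2 CPM for *TUBB1* (next 7.53 CPM) and 4.38 CPM for *GP9* (next 0.918 CPM). The gap took up 0.711, 0.755 and 0.79 of the group's range, beyond the limit of 0.71. Chance marks about 1 in 20 groups of normally distributed values in this way, and the 3 values come from the same rabbit. The log2 values were not tested in this way. For *TUBB1* they were -2.06, 4.92, 2.93, 2.49 and 0.88 in Perthes rabbits 1 to 5, where the wider gap lies below, at rabbit 1. The erythroid and neutrophil sums of Perthes rabbit 2, 2412 and 1810 CPM, were also the highest of the Perthes group.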

How the results depend on the processing

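The direction of each of the 7 genes was the same under all alternatives that could be fitted, whereas the calls were not. Against 2 of the 7 genes called lower and 0 higher by edgeR, DESeq2 called 4 and 1, and library totals alone gave 4 lower. Leaving out 1 rabbit at a time gave 0 to 5 lower and 0 to 1 higher. For the lists (31 and 3) DESeq2 gave 47 and 7, and leaving out 1 rabbit 0 to 44 and 0 to 6. Over all genes (1357 and 951) DESeq2 gave 1916 lower and 1720 higher. Leaving out 1 rabbit gave 0 to 1628 lower and 0 to 1267 higher. Both were 0 without control rabbit 2, where 2098 and 1624 genes had an unadjusted p below 0.05. With library totals alone 71.5% of calls were lower, against 58.8%.

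With the replicate number as a block (replicate block), 0 genes were called in either direction, among the 7, the lists or all genes, and 3, 44 and 3151 had an unadjusted p below 0.05. In that edgeR fit *ITGA2B* and *SELP* had adjusted p-values of 0.22 and 0.157, and Perthes rabbits 4 and 5, without a partner, do not add to the contrast. Deviations of same-numbered rabbits had correlations of -0.317, 0.161 and -0.238, and 0 of 3 controls correlated best with their own number. With so few rabbits, these values cannot show whether same-numbered rabbits share anything besides the number.

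With at least 10 counts in every library, *GP9*, *TREML1* and *TUBB1* could not be fitted. The 6 ratio differences kept their direction with 0.1 CPM added and without each rabbit, where 7 rabbits cannot reach an exact p below 0.0571. Of the 10 genes nearest to *ITGA2B*, 9 were shared with a prior count of 0.5 and all 10 with library totals alone.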

Other observations

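Some other genes of platelet activation, picked after their values were seen, did not pass the test. The ADP receptors *P2RY12* (2.22 ± 0.132 CPM, SD, n = 3, in controls and 3.4 ± 3.04 CPM, SD, n = 5, in Perthes rabbits) and *P2RY1* (35.6 ± 3.53 and 28.4 ± 3.98 CPM) had log2 fold changes of 0.62 and -0.32, with adjusted p-values of 0.627 and 0.189 from edgeR. *FCER1G*, the signalling partner of the collagen receptor and of Fc receptors on many leukocytes, had 0.49 (adjusted p = 0.498 from edgeR). The scavenger receptor *CD36*, with 213 ± 41.9 CPM (SD, n = 3) in controls and 557 ± 404 CPM (SD, n = 5) in Perthes rabbits, had a log2 fold change of 1.39 that did not pass (adjusted p = 0.19 from edgeR). In contrast, *FLI1*, a transcription factor of megakaryocytes and of endothelium, fell by 1.01 on the log2 scale (edgeR adjusted p = 0.0148), with a control mean of 70.9 ± 16.2 CPM (SD, n = 3) and a Perthes mean of 35.1 ± 6.04 CPM (SD, n = 5).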
